A study of Arabidopsis thaliana with 12 samples.

Results

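The 3 genes described here are AT5G07230, known as A9, AT1G75920, known as the coat lipase gene EXL5, and ATA27, an anther beta-glucosidase gene. They were chosen with earlier results of these data known, and then taken by name, as the single-gene probe sets annotated to these genes. Each has 1 probe set among the 22746 probe sets of the array that are not controls. The array was a 1-colour Affymetrix ATH1 chip of Arabidopsis thaliana, with 1 array per sample. The 4 groups, with 3 samples each, were flowers of lug-3 mutants at growth stage 6.90, flowers of wild-type plants at stage 6.90, mature rosette leaves of lug-3 mutants at stage 3.90 and the same leaves of wild-type plants at stage 3.90. All plants had the Landsberg erecta (Ler-0) background, so both genotypes carry the erecta allele of that strain, and each sample pooled 20 plants. The lug-3 groups rest on 1 mutant allele of LEUNIG, a transcriptional corepressor gene that acts in floral organ identity. Its flowers are described in the labels as having fewer stamens, petals that are stamen-like or missing, and lowered male and female fertility. Whether the 3 pools of each group came from separate plantings is not stated in the labels. The p-values here therefore refer to the spread among these pools alone, and that spread may be technical.

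The tapetum is the innermost wall layer of the anther, and it feeds the developing pollen. It secretes the precursors of the outer pollen wall and then breaks down, leaving lipids, lipases and other proteins on the grain as the pollen coat. A9 encodes a small secreted protein of the lipid transfer protein type, and its promoter is widely used to drive transgenes in the tapetum. EXL5 belongs to a family of extracellular GDSL-type lipases, some of which are found in the pollen coat. ATA27 encodes beta-glucosidase 20, an enzyme that removes glucose from glycosides, first described from anthers.

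The tissue labels were set against marker genes, because the protocol text of the flower samples also names rosette leaves. All 6 tested genes of leaf photosynthesis were lower in wild-type flowers than in wild-type leaves, against 26.2% of all tested probe sets. All 7 tested pollen genes were higher there, against 33.0%. In lug-3 plants the 6 photosynthesis genes were also lower in flowers than in leaves, against 19.4%. Of the 7 pollen genes 6 were higher there, against 31.7%, and the tubulin gene TUA1 was not called (log2 change -0.23). MGH3 and ACT12, among the 7, passed the filter on low signals only with their wild-type flower arrays. The GAPDH 3' to 5' signal ratio, a measure of RNA quality that rises as RNA degrades, was 1.65, 2.02 and 3.10 on the lug-3 flower arrays and 1.63, 1.78 and 2.07 on the wild-type flower arrays. It was 1.47 to 1.68 on the lug-3 leaf arrays and 1.71 to 3.44 on the wild-type leaf arrays. No probe set is named for LEUNIG here, so its transcript was not analysed here and does not check the genotype labels.

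All 3 tapetum and anther genes fell in lug-3 flowers, to between 31.5% and 39.8% of the mean wild-type signal. All 3 were still clearly present there, well above the leaf arrays. Signal here is the probe set intensity of the deposited table, scaled by the authors to a common mean, and it ranks samples for 1 gene but does not rank genes.

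ATA27 had signals of 294, 374 and 436 in lug-3 flowers, against 895, 928 and 1347 in wild-type flowers. The highest lug-3 flower array stood below the lowest wild-type one. The means were 368 ± 71.5 in lug-3 flowers and 1056 ± 252 in wild-type flowers (SD, n = 3 each), and the log2 change was -1.49 (SE 0.183, 95% interval -1.89 to -1.09, limma adjusted p = 0.000327). All log2 changes are on the log2(signal + 8) scale, which understates the change of low signals.

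EXL5 had signals of 54.0, 59.9 and 53.6 in lug-3 flowers, against 184, 151 and 197 in wild-type flowers. The lug-3 arrays lay close together and far below the wild-type arrays. The means were 55.8 ± 3.57 in lug-3 flowers and 177 ± 23.8 in wild-type flowers (SD, n = 3 each). The log2 change was -1.53 (SE 0.191, 95% interval -1.95 to -1.11, limma adjusted p = 0.000372).

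A9 had signals of 123, 130.1 and 146 in lug-3 flowers, against 245, 258 and 498 in wild-type flowers. The groups did not overlap, but 1 wild-type array, wild-type flowers 3, stood far above the other 2. The means were 133 ± 11.8 in lug-3 flowers and 334 ± 142 in wild-type flowers (SD, n = 3 each), and the log2 change was -1.21 (SE 0.315, 95% interval -1.89 to -0.52, limma adjusted p = 0.0277). The call was lost without wild-type flowers 3, where the log2 change was smaller (-0.89, adjusted p = 0.0873). It was also lost without lug-3 flowers 1, 2 or 3, at changes close to the full one (-1.15, -1.19 and -1.27, adjusted p = 0.0883, 0.0846 and 0.0535), and it held without wild-type flowers 1 or 2 (adjusted p = 0.0402 and 0.0478). It was also lost with a pseudocount of 1 in place of 8 (adjusted p = 0.180) and without the 3 arrays of highest GAPDH ratio (adjusted p = 0.0504).

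**Figure D1:**
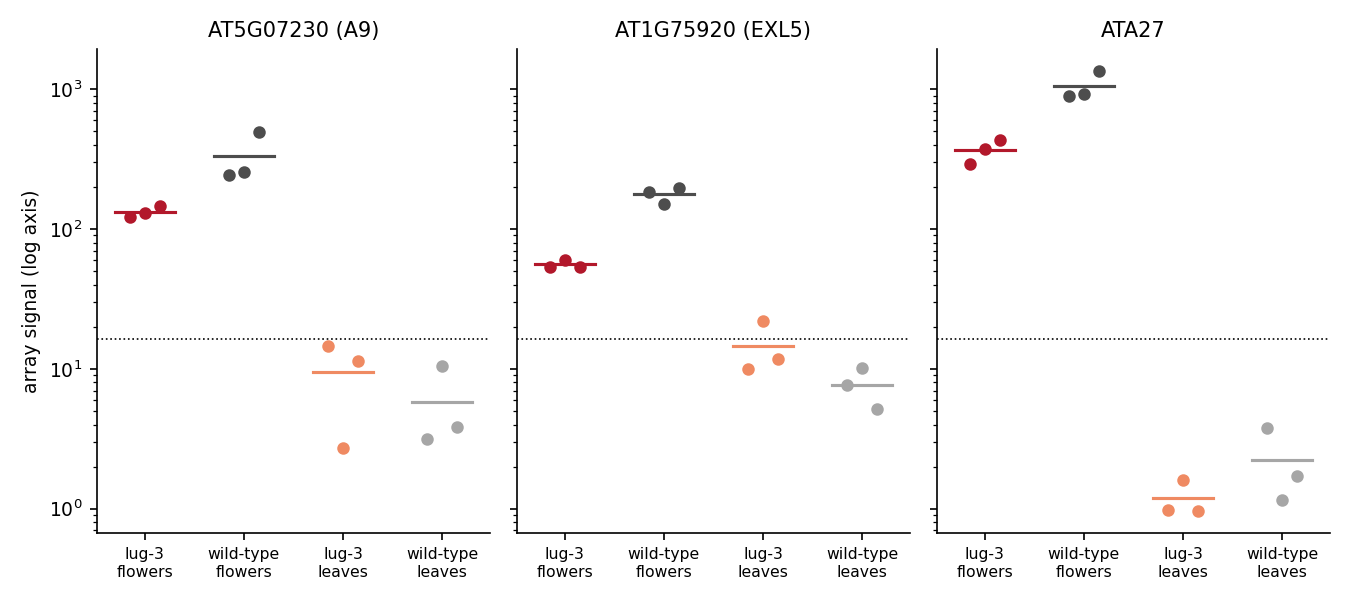
Signal of the 3 genes on each of the 12 arrays, on a log axis, with a point per array, a bar at the group mean and a dotted line at the signal of 16.4 used as the filter on low values. For each gene the 3 lug-3 flower arrays lie below the 3 wild-type flower arrays, and 11 of 12 leaf points of AT5G07230 and AT1G75920 and all 6 of ATA27 lie below the dotted line.

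These 3 calls stand against a background in which 12.0% of the 17877 tested probe sets were called in flowers, 6.75% lower in lug-3 (1207) and 5.27% higher (943). For 16.3% of the tested probe sets all 3 lug-3 flower arrays lay below all 3 wild-type arrays, as they did for all 3 genes. An exact two-sided permutation test of each gene in flowers gave p = 0.1, the smallest that 3 arrays against 3 can give. In whole flowers a lower number of tapetum or anther cells and less RNA in each such cell cannot be told apart.

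In leaves the 3 genes gave signals near the bottom of the range of the array. A9 had 14.6, 2.73 and 11.3 in lug-3 leaves, against 3.18, 10.5 and 3.86 in wild-type leaves. EXL5 had 9.95, 22.0 and 11.8 in lug-3 leaves, against 7.63, 10.2 and 5.18 in wild-type leaves. ATA27 had 0.971, 1.62 and 0.966 in lug-3 leaves, against 3.80, 1.15 and 1.73 in wild-type leaves. The groups overlapped for each gene, and 1 leaf value, EXL5 on lug-3 leaves 2, passed the filter signal of 16.4. All 3 genes therefore entered the test through their flower arrays.

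None of the 3 genes was called between lug-3 and wild-type leaves, where 22.3% of all tested probe sets were, 11.3% higher and 11.0% lower in lug-3. The log2 change of A9 was 0.31 (95% interval -0.38 to 1.00, limma adjusted p = 0.521), and that of ATA27 was -0.15 (-0.55 to 0.25, adjusted p = 0.613). For EXL5 it was 0.50 (0.09 to 0.92, unadjusted p = 0.0222, limma adjusted p = 0.0796). EXL5 passed the threshold when lug-3 leaves 1 was left out (log2 change 0.65, adjusted p = 0.0387). At these signals the array gives no firm order of the leaf groups.

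The lug-3 change in flowers was also set against that in leaves. Because 17 of the 18 leaf values lay below the filter signal, a fall in leaves could hardly have been seen, and the difference adds little to the flower change. The test of the difference called 23.0% of tested probe sets, 11.5% in each direction. The flower change minus the leaf change was -2.04 for EXL5 (SE 0.270, limma adjusted p = 0.000684), -1.35 for ATA27 (SE 0.259, adjusted p = 0.00411) and -1.52 for A9 (SE 0.445, adjusted p = 0.0292). That of A9 was not called when wild-type flowers 3, wild-type leaves 1 or 3, lug-3 leaves 1 or 3, or lug-3 flowers 1 or 2 was left out (adjusted p up to 0.0673), and those of A9 and ATA27 were not called with a pseudocount of 1 (adjusted p = 0.121 and 0.104). Flowers and leaves also differed in growth stage, and the 2 cannot be told apart.

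**Figure D2:**
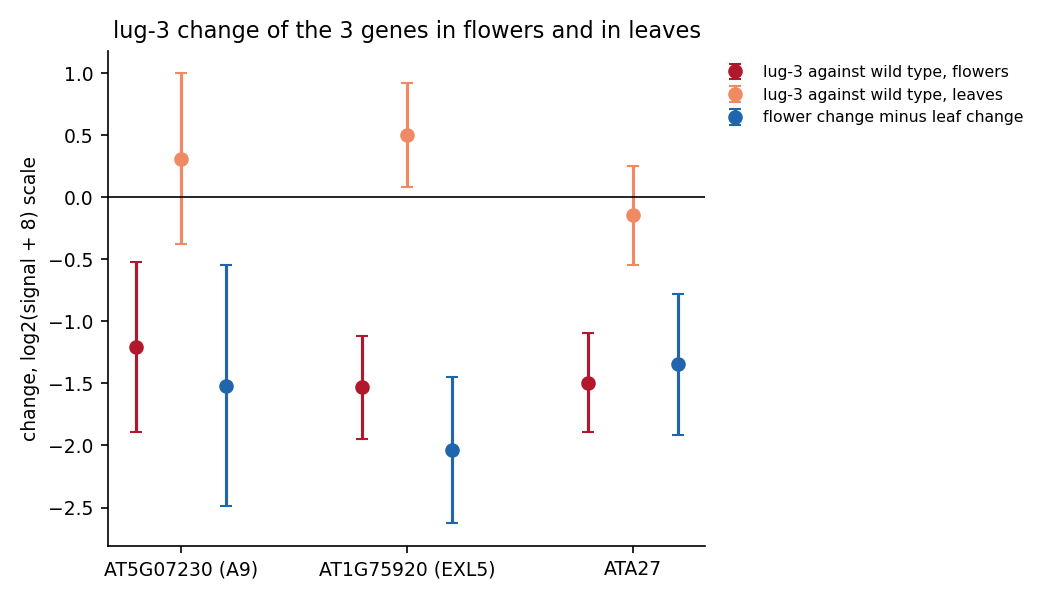
Change of each gene in lug-3 against wild type in flowers (red) and in leaves (orange), and the flower change minus the leaf change (blue), on the log2(signal + 8) scale, with 95% intervals from the limma fit of 12 arrays. The flower changes lie between -1.53 and -1.21, and all 3 flower intervals lie below 0.

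In both genotypes the genes stood above their leaf level in flowers. These differences are given without a test, since all 3 genes passed the filter through their flower arrays and ATA27 first came to notice in these data through its wild-type difference. In lug-3 plants the difference between flowers and leaves was 5.34 for ATA27 (SE 0.183), 3.07 for A9 (SE 0.315) and 1.53 for EXL5 (SE 0.191) on the log2 scale, where 51.1% of those tested were called, 31.7% as higher in flowers and 19.4% as lower. In wild-type plants it was 6.69 for ATA27, 4.59 for A9 (SE 0.315) and 3.57 for EXL5 (SE 0.191), where 59.2% were called, 33.0% higher and 26.2% lower. Centring each array on its median moved the median of all tested probe sets by -0.30 in the wild-type contrast and by -0.28 in the lug-3 contrast, and turned the wild-type split of 5897 higher and 4685 lower into 4121 and 7228. In lug-3 plants the split of 5672 higher and 3467 lower became 3362 and 5654, and 4505 and 4458 after quantile scaling. With median centring the difference between wild-type flowers and leaves was 6.39 for ATA27, 4.29 for A9 and 3.27 for EXL5. These tissue comparisons use the same arrays as the genotype comparisons above.

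The 3 genes were also set against each other within each flower array, since a scaling factor of an array acts alike on all of them. The log2 signal of EXL5 minus that of ATA27 was -2.28, -2.49 and -2.85 in lug-3 flowers, against -2.23, -2.56 and -2.72 in wild-type flowers. The genotypes overlapped, and the means differed by -0.04 (exact permutation p = 0.9), or by -0.17 to 0.12 with 1 array left out. A9 minus EXL5 was 1.07, 1.02 and 1.32 in lug-3 flowers, against 0.40, 0.74 and 1.30 in wild-type flowers. A9 minus ATA27 was -1.21, -1.47 and -1.53 in lug-3 flowers, against -1.83, -1.81 and -1.42 in wild-type flowers. Both pairs with A9 overlapped between genotypes, with mean differences of 0.33 and 0.29 (exact permutation p = 0.3 for each, and 0.6 after adjustment over 6 such tests, leaves included). Without wild-type flowers 3 these differences were 0.57 and 0.42, and without wild-type flowers 1 that of A9 minus EXL5 was 0.12. Without lug-3 flowers 1 that of A9 minus ATA27 was 0.19. The smallest p these tests can give is 0.1, so they cannot show whether the 3 genes fell by unequal amounts.

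The 3 wild-type flower arrays differed among themselves. All 3 genes were highest on wild-type flowers 3, at 149% of the wild-type mean for A9, 127% for ATA27 and 111% for EXL5. The summed signal of 7 pollen marker genes was lowest there, at 85.1% of its wild-type mean, and highest on wild-type flowers 1, at 114%, where A9 stood at 73.4%, ATA27 at 84.7% and EXL5 at 104%. Whether the 3 genes and the pollen genes differ in this was not tested. Among the 3 wild-type flower arrays, 6 of these 7 pollen genes were lowest on wild-type flowers 3. Of 21 other tapetum genes, 12 were highest there and 8 lowest, and 5 were highest on wild-type flowers 1. Wild-type flowers 3 also had the highest GAPDH ratio of the 3 wild-type flower arrays, and the part of RNA quality in these differences was not tested.

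**Figure D3:**
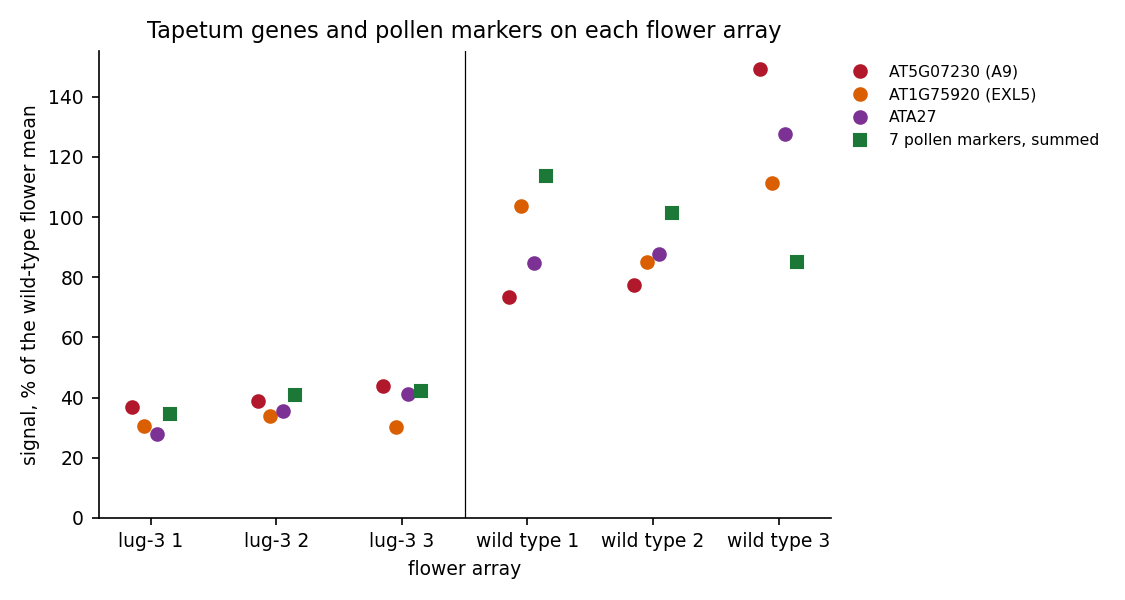
Signal of the 3 genes (circles) and summed signal of 7 pollen marker genes (squares) on each flower array, as a percentage of the mean of the 3 wild-type flower arrays. All values lie between 27.8% and 43.7% on the lug-3 arrays and between 73.4% and 149% on the wild-type arrays, and on wild type 3 the circles lie above and the square below the wild-type mean.

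The other tapetum genes were taken from 4 lists with 71 genes in all, of which 28 have a probe set of their own named here and 24 were tested. Besides the 3 genes above, 21 were tested. Of these, 11 fell in lug-3 flowers, 52.4% against the background of 6.75%, 1 rose, and the other 9 did not pass the test, all with a negative change. Their median log2 change was -0.996, beside 0.05 over all tested probe sets. The lists were chosen with earlier results of these data known. All 21 were called higher in wild-type flowers than in wild-type leaves, against 33.0% of all tested probe sets. The 6.75% is thus not a share among flower-enriched genes. Of the 21, 19 were above the filter signal on all 3 lug-3 flower arrays and could thus have passed the filter without wild-type flowers. AT1G06170 and AT1G23250, which is 1 of the 11, were not. The 11 include AT5G49180, a pectin methylesterase gene that is not a known enzyme of exine synthesis. The count of 11 became 8 to 13 when 1 array at a time was left out, 7 with a pseudocount of 1, 17 with a pseudocount of 32 and 19 with array weights. No gene of the 21 was called between lug-3 and wild-type leaves by limma, against 22.3% of all tested probe sets, and 3 had an unadjusted p under 0.05. Many of the 21 had leaf means below the filter signal, such as AT5G62080 (6.29 in lug-3 and 3.84 in wild-type leaves). A fall of such genes in leaves could hardly have been seen.

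Among the genes listed for the pollen coat the largest fall was that of AT5G61605. Its signals were 24.8, 40.2 and 58.2 in lug-3 flowers, against 222, 245 and 230.4 in wild-type flowers. The groups lay far apart, and the log2 change of -2.35 (SE 0.258, limma adjusted p = 0.00016) was larger than that of any of the 3 genes. AT1G23240, of the caleosin family of oil body proteins, fell by 1.46 (53.4 ± 2.26 in lug-3 flowers and 162 ± 30.1 in wild-type flowers, SD, n = 3 each), its neighbour AT1G23250 by 0.88 and AT2G29790 by 1.13. AT1G23250 had 14.2, 16.7 and 14.8 in lug-3 flowers. Without its wild-type flower arrays AT1G23250 would not have passed the filter, so its fall was favoured in advance. In all, 7 of 9 tested genes of this list of 21 fell, against 6.75% of all tested probe sets, and 1 rose. The 7 include EXL5 and ATA27, which were chosen with earlier results known, and AT1G23250.

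Of 10 tested genes for secreted tapetum proteins and callose-degrading enzymes, out of 17 listed, 4 fell, against 6.75% of all tested probe sets. The 4 include A9, which was chosen with earlier results known. AT5G62080 and AT1G66850 encode small proteins of the same lipid transfer type as A9. AT5G62080 had 131, 123 and 153 in lug-3 flowers, against 214, 304 and 513 in wild-type flowers, with wild-type flowers 3 far above the others, as for A9 (log2 change -1.20, adjusted p = 0.0297). AT1G66850 fell by 1.19 (790.1 ± 116 in lug-3 flowers and 1809 ± 202 in wild-type flowers, SD, n = 3 each). AT4G20420 fell by 1.43, with 65.6, 66.5 and 52.4 in lug-3 flowers against 95.3, 175 and 334 in wild-type flowers. Its value on wild-type flowers 3 also stood far above the others. AT3G52130, of the same protein type, had 26.5, 21.9 and 31.4 in lug-3 flowers, against 29.3, 62.9 and 114 in wild-type flowers, and did not pass (adjusted p = 0.0592). These 3 relatives were singled out after their values were seen. The callase-type glucanase gene AT3G23770 had a change of -0.78 (adjusted p = 0.126).

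Of the genes listed for the outer pollen wall, 2 of 3 tested fell, against 6.75% of all tested probe sets. SWEET8, a plasma membrane sugar transporter gene needed for pollen wall formation and also called RPG1, had 63.3, 119 and 83.7 in lug-3 flowers, against 217, 221 and 301 in wild-type flowers (log2 change -1.42, limma adjusted p = 0.00196). The other was AT5G49180 (-1.47), a pectin methylesterase gene, which is not a known enzyme of exine synthesis. AT1G33430 had -1.20 and did not pass (adjusted p = 0.0586). Among tapetum regulators EMS1, the receptor kinase gene by which tapetum cells are specified, fell by 0.91, with 113, 123 and 104 in lug-3 flowers against 225, 234 and 201 in wild-type flowers (adjusted p = 0.0441). AT1G06170, a bHLH factor gene, had -0.78 (adjusted p = 0.159). The signals of the regulators SPL, AMS and AT2G31210 were too low to be tested, at most 21.7 on any array.

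**Figure D4:**
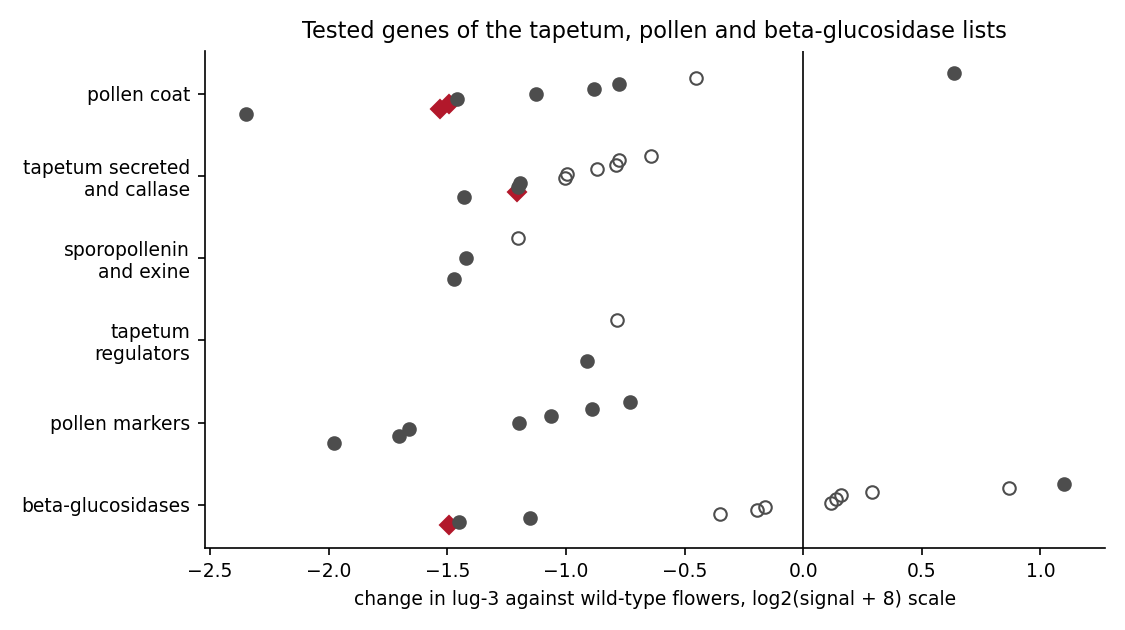
Change in lug-3 against wild-type flowers of each tested gene on 6 lists, on the log2(signal + 8) scale, with filled symbols for an adjusted p below 0.05 and red diamonds for AT5G07230, AT1G75920 and ATA27. All but 1 of the tapetum and pollen coat genes, AT1G75890, lie left of 0, as do all 7 pollen markers, while the beta-glucosidase genes lie on both sides.

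Pollen genes also fell in lug-3 flowers. All 7 tested pollen markers, of 24 listed, were called lower there, as were 6.75% of all tested probe sets. The log2 changes of the 7 ran from -0.73 (TUA1, a tubulin gene) to -1.98 (PLIM2a, a pollen LIM protein gene). The summed signal of the 7 ranged over 469.5 to 572 in lug-3 flowers and 1154 to 1540.2 in wild-type flowers. It ranged over 244 to 267 in lug-3 leaves and 247 to 290.4 in wild-type leaves. TUA1 gave much of the leaf sum, with means of 154 in lug-3 leaves and 159 in wild-type leaves. Between lug-3 and wild-type leaves ACT11 was called higher (log2 change 1.21, limma adjusted p = 0.000308) and PLIM2b lower (-0.56, adjusted p = 0.029). Of the 7 pollen markers, 5 were above the filter signal of 16.4 on all 3 lug-3 flower arrays. MGH3 and ACT12 were not, with lowest values of 9.94 and 9.40 there. The part of a lower pollen content in the tapetum result was not tested. Other flower parts changed in both directions: BAN and INO of the ovule fell and the carpel gene SPT rose among 4 tested carpel and ovule genes, and BPEp fell as 1 of 3 petal and sepal genes. None of 6 photosynthesis genes was called by limma in lug-3 flowers, 2 at an unadjusted p under 0.05.

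EXL5 and ATA27 are neighbours on chromosome 1, in a row of extracellular lipase genes that runs AT1G75880, AT1G75890, AT1G75900, EXL4, EXL5, EXL6 and ATA27 in the RefSeq gene order. EXL4 and EXL6 have no probe set named here and were not analysed here. The 5 measured genes of the row did not move together. EXL5 and ATA27 fell most, and AT1G75900 fell by 0.78 (limma adjusted p = 0.0294), with 647, 574 and 529 in lug-3 flowers against 1202, 1104 and 759 in wild-type flowers. AT1G75880 had 196, 131 and 115 in lug-3 flowers, against 229, 212 and 163 in wild-type flowers. Its groups overlapped, and the log2 change of -0.45 did not pass (adjusted p = 0.160).

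AT1G75890 ran the other way and was the only tested gene of the 4 tapetum lists to rise. Its signals were 40.5, 45.1 and 32.9 in lug-3 flowers, against 27.8, 23.9 and 16.7 in wild-type flowers. The groups did not overlap, with lug-3 above wild type as for 20.4% of tested probe sets, although the log2 change of 0.63 (SE 0.188) passed only narrowly (limma adjusted p = 0.0481). On wild-type flowers 3, where EXL5 and ATA27 were highest, AT1G75880, AT1G75890 and AT1G75900 were each at their lowest wild-type flower signal. The lipase genes are paralogs, and whether a probe set also reads a neighbour's transcript was not tested.

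**Figure D5:**
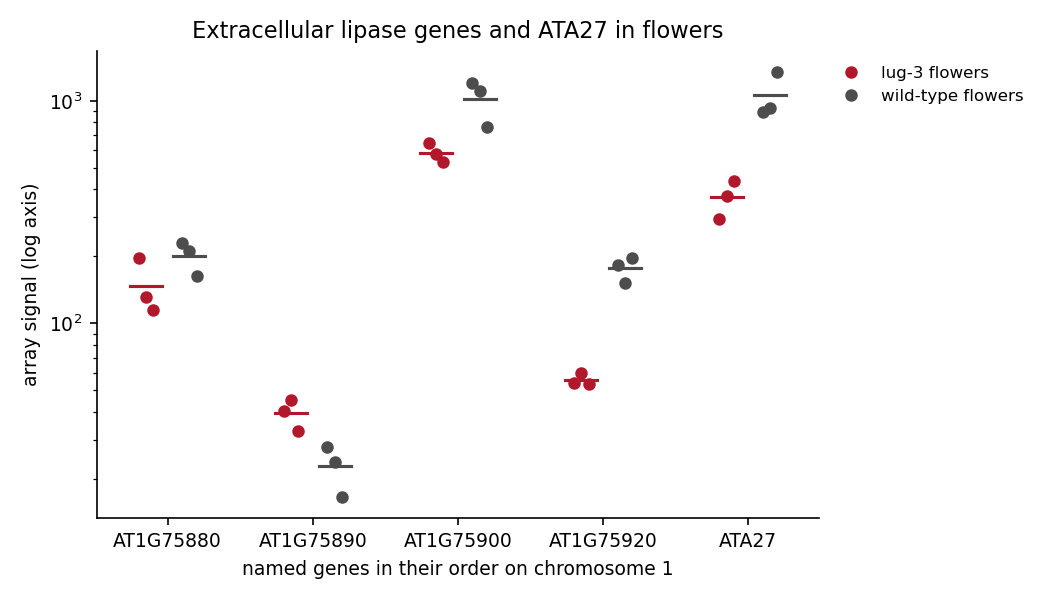
Signal on each lug-3 and wild-type flower array, on a log axis, of the 5 measured genes in their order on chromosome 1, with a point per array and a bar at the mean. The lug-3 means lie below the wild-type means for all but AT1G75890, whose means are 39.5 in lug-3 flowers and 22.8 in wild-type flowers.

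Beyond the row, AT1G75870 stood at a change of -0.92 in flowers (adjusted p = 0.0498), with 9.16, 23.9 and 17.7 in lug-3 flowers against 28.2, 52.7 and 35.6 in wild-type flowers. Without its wild-type flower arrays AT1G75870 would not have passed the filter, so a fall was favoured in advance. On the other side AT1G75980 and AT1G75990 had changes of 0.00 and -0.18 and did not pass (adjusted p = 0.995 and 0.414), and AT1G75960 was too low to be tested. A9 lies on chromosome 5, with EMS1 as the fifth gene after it. The gene next to it, IQD24, had a change of 0.01 in flowers (adjusted p = 0.979), and AT5G07260 was too low to be tested.

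ATA27 is also 1 of 42 listed beta-glucosidase family genes, of which 12 were tested. In lug-3 flowers 3 of the 12 fell, against 6.75% of all tested probe sets: ATA27, BGLU15 (-1.15) and BGLU28 (-1.45). This count includes ATA27, which was chosen with earlier results known. It also includes BGLU28, which had 11.2, 15.1 and 35.3 in lug-3 flowers. Without its wild-type flower arrays BGLU28 would not have passed the filter, so its fall was favoured in advance. BGLU46 rose by 1.10. The median of the family was -0.02, beside 0.05 over all tested probe sets. BGLU46 had 37.3, 46.2 and 21.3 in lug-3 flowers, against 12.6, 11.7 and 10.0 in wild-type flowers. The groups did not overlap, with lug-3 above wild type as for 20.4% of tested probe sets. Without its lug-3 flower arrays BGLU46 would not have passed the filter, so its rise was favoured in advance. In lug-3 leaves, where ATA27 was not called, BGLU15, BGLU16, BGLU25 and BGLU40 rose, by 0.52, 1.28, 0.78 and 0.91, 4 of 12 against 11.3% of all tested probe sets.

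The genes whose log2 signal followed the 3 genes most closely over the 12 arrays were named from Pearson's r, as a description. The 6 flower arrays stand above the 6 leaf arrays for all of them, which sets most of each r. The 3 genes themselves correlated at 0.98 (A9 and ATA27), 0.95 (EXL5 and ATA27) and 0.95 (A9 and EXL5). Most like ATA27 were AT1G68875 (r = 0.999), AT1G47980, the thiol reductase family gene GILT, AT1G10980 and AT1G66850 (r = 0.996). AT1G68875 had 217, 228 and 255 in lug-3 flowers, against 583, 653 and 729 in wild-type flowers, and at most 2.04 on any leaf array. GILT had 700.2, 848 and 859 in lug-3 flowers, against 2545, 2256 and 2239 in wild-type flowers.

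Most like A9 were AT5G62080 (r = 0.995), AT4G37900, AT4G32460, AT3G01980 and AT1G10850 (r = 0.986). Most like EXL5 were AT1G12450 (r = 0.994), AT3G51070, AT3G26140, AT1G76550 and AT5G09500 (r = 0.979). No gene was on more than 1 of these 3 lists. With Spearman's correlation in place of Pearson's, 1 of the 5 genes most like A9 stayed among its 5, and none of those most like EXL5 or ATA27.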

How the data were processed

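The deposited table holds probe set intensity, called signal, as the authors made it on a linear scale. The submitters' processing notes name MAS5 and GCOS. Versions, settings and the genome build were not given in the sources used here. On every array the mean after trimming 2% of probe sets at each end was 100.0, so no further scaling was applied. Without detection calls, how far a low signal stands above background is unknown, and the number of arrays limits the precision.

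Of 22810 probe sets 64 controls were left out. GEO's platform annotation gives 13513 probe sets a single gene and 503 more than 1. The remaining 8730 have no name here. By Entrez ID 13436 were matched to RefSeq genes (TAIR10.1), used for names and gene order only. Signals were taken as log2(signal + 8), 8 being the rounded 20th percentile. A probe set was tested when above 16.4, the 30th percentile, on at least 3 arrays (17877). One limma 3.58.1 fit (R 4.3.3) of 4 group means over all 12 arrays gave each contrast, with Benjamini-Hochberg adjustment over all tested probe sets and calls below 0.05. Unless another test is named, an adjusted p comes from this fit. The fit was tested on simulated data. Single values were compared with exact two-sided permutation tests (scipy 1.17.1).

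The 3 genes and the gene lists were chosen with earlier results of these data known. Genes named were the 3 genes, up to 4 genes per list with the smallest p in flowers, the 5 most like each gene, and neighbours within 5 positions. Others were named after their values were seen, among them AT1G75880, AT3G52130, AT3G23770 and further beta-glucosidase genes. For genes with more than 1 probe set the brightest stood for the gene. No protein or promoter sequence is printed, since none was at hand. Of 13 lists with 209 genes 57 genes were tested. No gene of the stamen jasmonate and stamen identity lists was, and ADPG1 of the anther dehiscence list (-0.11 in flowers, adjusted p = 0.787) and SEU of the LEUNIG complex (0.06, adjusted p = 0.754) were not called. Alternatives were another pseudocount, filter, scaling, set of arrays, array weights, eBayes options, replicate block and RNA quality term.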

Additional observations from a re-analysis of the deposited data

Results flagged for a closer look

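The flower change of each of the 3 genes passed a test against its own leaf change. The flower change minus the leaf change was -1.52 for AT5G07230, -2.04 for AT1G75920 and -1.35 for ATA27 on the log2(signal + 8) scale. The leaf signals lay at the bottom of the range of the array, none above 22.0, so a fall in leaves could hardly have been seen. The call was lost in 10 of 24 alternative fits for AT5G07230, in 1 for ATA27 and in 0 for AT1G75920.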

How the results depend on the processing

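In 25 alternative fits (24 for the flower minus leaf difference) the fall of AT1G75920 (-1.69 to -1.25) and of ATA27 (-1.62 to -1.31) in lug-3 flowers stayed below the threshold (adjusted p up to 0.00629 and 0.0111), and none of the 15 gene values, over 3 genes and 5 contrasts, changed sign. The fall of AT5G07230 was not called with a pseudocount of 1 (-1.25, adjusted p = 0.180) or without the 3 arrays of highest GAPDH ratio (-1.27, adjusted p = 0.0504), and ran from -1.39 to -0.89 when 1 array was left out. The flower minus leaf difference was not called for AT5G07230 with a pseudocount of 1 (-1.79), with the GAPDH ratio as a covariate (-1.83) or without those 3 arrays (-1.85), and ran from -1.84 to -1.20 with 1 array left out. For ATA27 it was not called with a pseudocount of 1 (-1.02). The leaf value of AT1G75920 ran from 0.28 to 0.65 with 1 array left out.

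The 2150 calls in flowers became 5059 with array weights and 1151 to 2608 with 1 array left out; the 3993 in leaves became 1950 with only leaf arrays and 2581 to 4014 with 1 array left out. The 11 other tapetum genes lower in lug-3 flowers became 7 with a pseudocount of 1, 17 with 32 and 19 with array weights; this count was added after the data were examined. In leaves the within-array difference of AT1G75920 minus ATA27, 0.65 between genotypes, was 1.30 with a pseudocount of 1 and 0.27 with 32. The cause of these changes was not tested. The labels number replicates alike in all groups. The deviations of same-numbered samples of different groups from their group means correlated at r of -0.11 to 0.18. Those of samples with unlike numbers correlated at -0.24 to 0.17. Whether same-numbered samples share a batch was not tested. With the replicate number as a block, 2006 probe sets were called in flowers, and no call of the 3 genes changed.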
